A study of Rattus norvegicus with 38 samples.

Results

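The genes described here belong to 3 programmes of cell death, and were followed across the 8 groups of a rat heart transplant study. The list was written by name, with earlier results of these data known, and holds 41 genes of apoptosis, necroptosis and pyroptosis. Of these, 35 were measured by a probeset of their own among 10411 genes on the heart arrays, and 39 among 14217 genes on the blood arrays. A probeset is the set of short probes that reads one transcript. In heart, Bbc3, Fadd, Tnfsf10, Mlkl and Gsdmd were not analysed, and Bax was read only by a probeset that it shares with LOC681314. In blood, Mlkl was not analysed and Bax was again read by the shared probeset.

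Hearts of the Dark Agouti (DA) strain were placed in the abdomen of a recipient rat, and tissue was taken on day 6. The heart groups were 5 allografts (DA hearts in Brown Norway, BN, recipients), 4 isografts (DA hearts in DA recipients), 5 native BN hearts and 4 native DA hearts. The blood groups held peripheral blood mononuclear cells (PBMC) of 5 allograft recipients (BN), 9 isograft recipients (DA), 3 untransplanted BN rats and 3 untransplanted DA rats. Donors were given heparin before the hearts were taken. No immunosuppressive drug is named for any group and no ages are given in the sources used here. Every graft was a DA heart, so the rejection effect (allograft over isograft) compares hearts of 1 donor strain in hosts of 2 strains. The native BN hearts were those of the allograft recipients and the native DA hearts those of the isograft recipients, so strain and the kind of graft carried cannot be told apart in native hearts. The same holds in recipients' PBMC, where the comparison is called the strain plus rejection effect. Untransplanted and transplanted rats' PBMC were processed as separate batches, and levels were compared only within each of them.

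Apoptosis is a contained form of death. On its mitochondrial route, BH3-only proteins release Bax and Bak1 from BCL2 family guards, and proteins that leave the mitochondrion then start the caspase cascade, while on the other route receptors of the tumour necrosis factor family recruit caspase 8. Necroptosis runs through the kinases Ripk1 and Ripk3 and breaks the cell membrane, and pyroptosis is the inflammatory death of cells in which inflammasomes have activated caspase 1. In a rejecting heart, cytotoxic lymphocytes use granzymes and Fas ligand to kill graft cells, while invading leukocytes themselves express much of this machinery.

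Signals are given in units of the array median, so that 1 is the median probeset of that array. The median deposited signal lay between 38.3 and 50.8 on the 18 heart arrays and between 20.2 and 36.8 on the 20 PBMC arrays. A gene passed the test at an adjusted p of at most 0.10 (limma, Benjamini-Hochberg over all probesets of the array). Fold changes are on the log2 scale with their standard error (SE). The hearts carried the markers of their tissue, since the summed signal of 10 cardiomyocyte genes was 119 to 302 array medians in allografts, 610 to 1060 in isografts, 757 to 1082 in native BN hearts and 841 to 1292 in native DA hearts. In PBMC, the summed signal of 11 T cell genes ran between 220 and 381 in allograft recipients, 359 and 601 in isograft recipients, 494 and 547 in untransplanted BN rats and 885 and 932 in untransplanted DA rats. Among allograft recipients, the array of recipient 3 had the lowest mean correlation with its group, 0.932 against 0.942 to 0.947 for the others. Isograft recipients had 0.931 to 0.937. In hearts the lowest was native DA heart 13, at 0.918 against 0.926 to 0.929 for the others of its group.

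Rejection was accompanied by a broad difference in the death genes of the graft. Of the 35 measured members, 20 were higher and 3 were lower in allografts than in isografts (n = 5 and 4). That is 65.7% of the members, where 45.7% of all genes tested passed. The members' difference was mostly upward: 57.1% were higher, against 22.5% of all genes, and 8.57% were lower, against 23.2% of all genes. Their median log2 fold change was 0.63, and that of all genes was 0.02. Groups did not overlap for 16 members that were higher and 2 that were lower, beside 17.5% and 17.7% of all genes. Under a stricter rule, which also asks for a fold of at least 3 and for at least 50% of either group's arrays to reach the array median, 9 members were higher and 1 was lower, where 4.37% and 5.68% of all genes met the same rule.

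Both measured kinases of necroptosis were higher in allografts. Ripk3, the kinase that activates the membrane-breaking protein Mlkl, had signals of 6.96, 7.62, 3.87, 4.66 and 5.72 in allografts, against 0.766, 0.618, 0.586 and 0.537 in isografts. All allografts lay well above the array median and all isografts below it, a 9.0-fold difference (log2 fold change 3.17 ± 0.28 SE, adjusted p = 2.17e-07). Ripk1, which joins Ripk3 downstream of the tumour necrosis factor receptor, stood at 3.64, 2.76, 1.89, 2.21 and 2.68 in allografts, against 0.565, 0.713, 0.774 and 0.463 in isografts. The groups were again separate, with a wider error (2.06 ± 0.58, 4.17-fold, adjusted p = 0.00958).

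The 3 measured pyroptosis genes were all higher. Casp1, the protease that matures interleukins 1 beta and 18, reached 10.2, 6.46, 4.98, 10.0 and 11.2 in allografts, against 1.38, 1.56, 1.51 and 1.20 in isografts (2.54 ± 0.25, 5.83-fold, adjusted p = 6.21e-07). Pycard, the adaptor that links inflammasome sensors to caspase 1, measured 8.57, 7.31, 4.04, 5.70 and 4.91 in allografts, against 2.15, 1.77, 1.70 and 1.60 in isografts (1.72 ± 0.19, 3.29-fold, adjusted p = 1.94e-06). For both genes the lowest allograft was more than every isograft. Casp4, which in mouse and human senses bacterial lipopolysaccharide inside the cell, differed less, at 3.05, 2.06, 1.62, 1.99 and 2.40 in allografts, against 1.54, 1.52, 1.53 and 1.07 in isografts (0.64 ± 0.22, adjusted p = 0.0304). Its call was lost without isograft 13, the lowest isograft (adjusted p = 0.112).

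**Figure D1:**
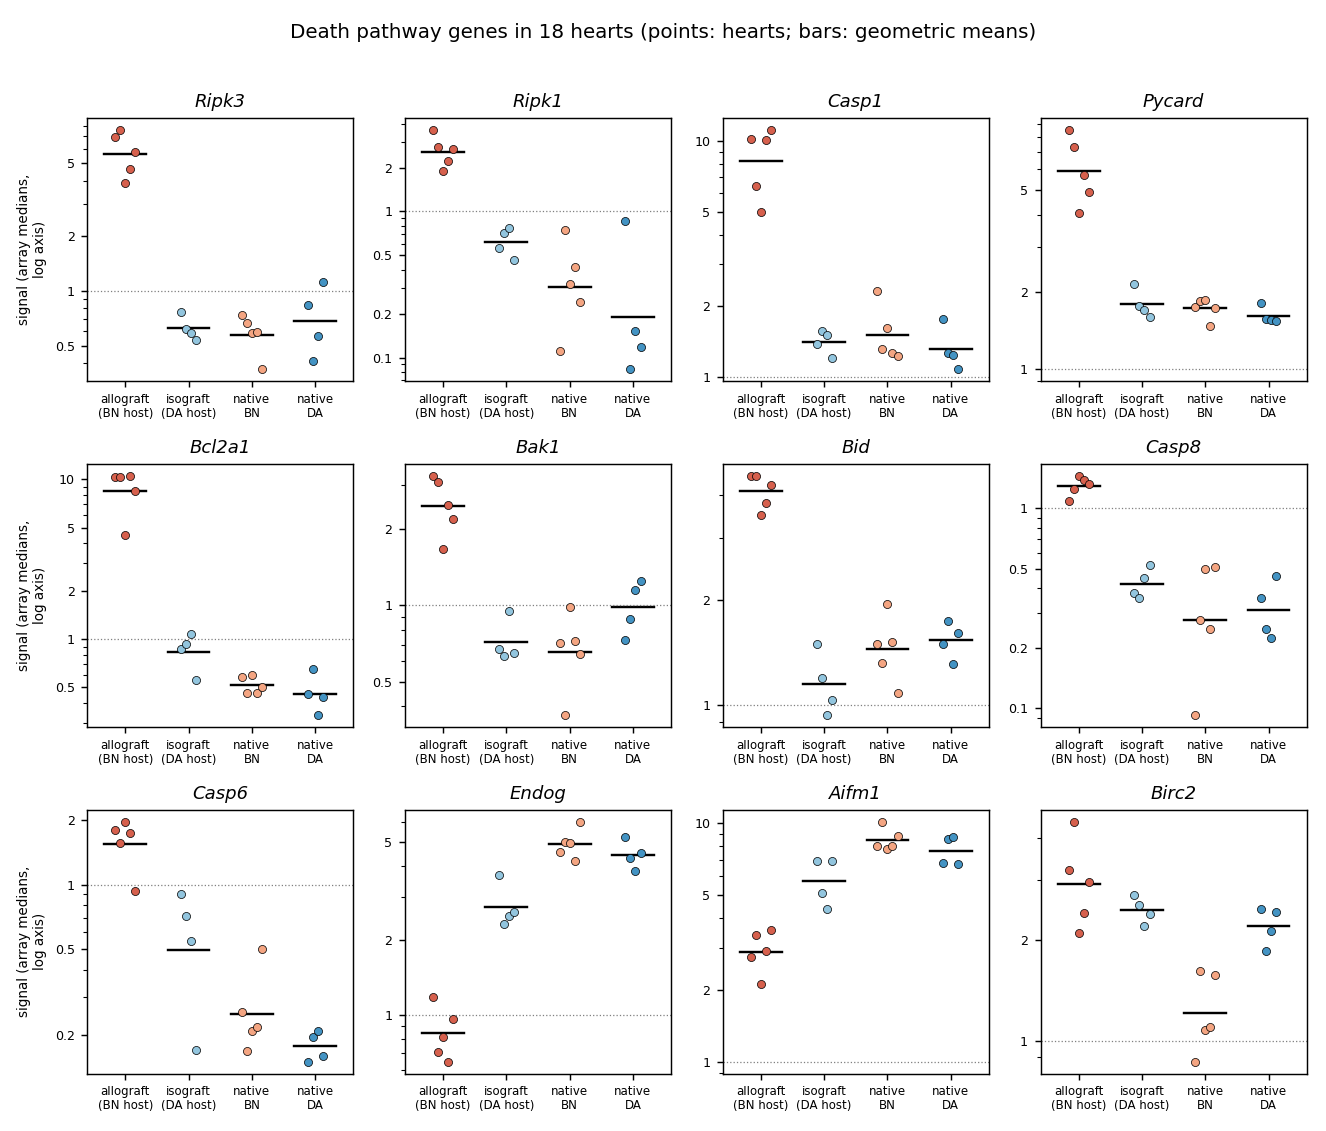
Signal of 12 death pathway genes in each of 18 hearts, in array medians on a log axis, with points for hearts, bars for geometric means and a dotted line at the array median. Allografts lay apart from isografts for Ripk3, Ripk1, Casp1, Pycard, Bcl2a1, Bak1, Bid, Casp8, Casp6, Endog and Aifm1, while Birc2 set native BN hearts below native DA hearts.

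Promoter windows of 300 bases, running 250 bases before to 50 after the transcription start, could be matched in the RefSeq annotation of the GRCr8 rat genome for 30 of the 41 members. They were searched on both strands for 3 motifs of inflammatory regulators: the NF-kB motif GGAAANTCC, the interferon-stimulated response element GAAANNGAA and the gamma-activated site TTCNNNGAA. At least 1 motif was found in 9 of the 30 members (30%), against 18.4% of 33469 rat windows. The interferon element was in 6 members (20%, against 9.71% of all windows), the gamma-activated site in 3 (10%, against 8.87%) and the NF-kB motif in 1 (3.33%, against 1.28%). Of the members that were higher in allografts, 4 of 14 held a motif (28.6%), and of the measured members that were not, 4 of 13 did (30.8%). Ripk3 and Bcl2a1, with the steepest rejection effects, held none in these windows. The windows of 4 members with a match are shown because they differ most in their response: Casp1 and Ripk1 were several-fold higher in allografts, Mcl1 differed little, and Casp12 passed in both blood comparisons. The matched letters are in capitals. They read as the interferon element on the reverse strand in Casp1 (position -27 from the start), Ripk1 (-160) and Casp12 (-37, with a gamma-activated site at -74), and as NF-kB in Mcl1 (-99). The windows lie at chr8:10872580-10872879 (plus strand, Casp1), chr17:31077118-31077417 (minus strand, Ripk1), chr2:185907918-185908217 (plus strand, Mcl1) and chr8:10926938-10927237 (plus strand, Casp12). Such a match is a description of the letters and not of a factor's binding.
Casp1: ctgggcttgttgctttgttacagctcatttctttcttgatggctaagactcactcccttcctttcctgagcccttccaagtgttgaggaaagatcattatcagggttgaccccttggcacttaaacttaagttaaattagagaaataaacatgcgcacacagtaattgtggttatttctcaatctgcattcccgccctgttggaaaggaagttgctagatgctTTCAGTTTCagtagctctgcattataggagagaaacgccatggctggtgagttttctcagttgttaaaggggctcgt
Ripk1: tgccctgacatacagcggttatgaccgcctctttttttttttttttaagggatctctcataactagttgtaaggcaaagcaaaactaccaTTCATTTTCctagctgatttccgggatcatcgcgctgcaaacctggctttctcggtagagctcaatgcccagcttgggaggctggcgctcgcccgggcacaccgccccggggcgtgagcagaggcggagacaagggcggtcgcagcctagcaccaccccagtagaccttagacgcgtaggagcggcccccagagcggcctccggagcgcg
Mcl1: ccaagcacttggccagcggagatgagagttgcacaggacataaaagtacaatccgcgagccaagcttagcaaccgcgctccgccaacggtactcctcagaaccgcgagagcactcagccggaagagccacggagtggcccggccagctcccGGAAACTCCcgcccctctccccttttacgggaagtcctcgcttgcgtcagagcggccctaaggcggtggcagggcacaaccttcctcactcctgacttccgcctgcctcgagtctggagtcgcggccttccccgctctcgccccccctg
Casp12: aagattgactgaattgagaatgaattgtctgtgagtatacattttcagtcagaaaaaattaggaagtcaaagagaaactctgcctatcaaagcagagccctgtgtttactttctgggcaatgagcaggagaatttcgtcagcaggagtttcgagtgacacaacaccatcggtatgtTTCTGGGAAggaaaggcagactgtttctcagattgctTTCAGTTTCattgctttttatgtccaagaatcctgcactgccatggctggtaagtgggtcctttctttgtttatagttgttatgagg

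Among the guards of the mitochondrial route, Bcl2a1, a BCL2 relative made mainly by blood cells, showed the widest rejection effect of any member. Its signals were 10.3, 10.4, 4.47, 10.5 and 8.48 in allografts, against 0.870, 0.930, 1.08 and 0.555 in isografts (3.34 ± 0.26, 10.1-fold, adjusted p = 7.58e-08). Allograft 5 was the lowest of its group and still far above the highest isograft. Mcl1, a short-lived guard that neutralises Bak1, differed far less and the groups overlapped, at 5.50, 8.27, 6.57, 7.48 and 7.92 in allografts, against 4.90, 6.65, 4.77 and 4.81 in isografts (0.44 ± 0.19, adjusted p = 0.0827). Its call was lost without allograft 4, 6 or 7 or isograft 9, 12 or 13 (adjusted p up to 0.177). The guards Bcl2 and Bcl2l1 did not pass, with log2 fold changes of 0.44 and 0.46. The only heart probeset of Bcl2l2 was far below the array median (geometric mean 0.0431 in allografts and 0.0530 in isografts), and no fold is given from it.

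The pore former Bak1, which perforates the outer mitochondrial membrane, was higher, at 3.25, 3.06, 1.67, 2.49 and 2.19 in allografts, against 0.673, 0.631, 0.952 and 0.651 in isografts (1.78 ± 0.27, 3.44-fold, adjusted p = 5.05e-05). The probeset that Bax, the other main pore former, shares with LOC681314 gave 4.65, 4.17, 3.57, 3.80 and 3.71 in allografts, against 1.67, 1.60, 1.23 and 0.722 in isografts (1.67 ± 0.21, adjusted p = 1.02e-05). That probeset was kept out of the member counts, since its signal may come from either gene. Bok, another relative, was read differently by its probesets: the brighter gave -0.24 ± 0.17 (adjusted p = 0.299) and the dimmer 0.88 ± 0.19 (adjusted p = 0.00173).

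Of the 6 measured BH3-only and BNIP3 genes, 4 were higher and 1 was lower. Bid, which caspase 8 cleaves to carry the receptor signal to the mitochondrion, had 4.53, 4.51, 3.50, 3.78 and 4.26 in allografts, against 1.50, 1.20, 0.937 and 1.03 in isografts (1.83 ± 0.18, 3.57-fold, adjusted p = 5.42e-07). Its dimmer probeset passed as well (2.51 ± 0.61, adjusted p = 0.00349). Bcl2l11, or Bim, which ends the life of activated lymphocytes, measured 6.47, 5.49, 3.73, 4.06 and 4.22 in allografts, against 1.93, 1.87, 2.17 and 1.90 in isografts (1.25 ± 0.17, adjusted p = 2.08e-05). Here 2 dim probesets of the gene did not pass (0.10 and -0.31), and its call was lost with the median over probesets (adjusted p = 0.789). Bad, the BH3-only protein held in check by survival kinases, had 4.73, 4.22, 2.89, 3.53 and 3.18 in allografts, against 2.32, 1.63, 1.85 and 2.21 in isografts (0.88 ± 0.21, adjusted p = 0.00296). The mitophagy receptors Bnip3l and Bnip3 parted. Bnip3l had 15.3, 17.4, 14.2, 14.8 and 14.03 in allografts, against 10.6, 7.92, 10.5 and 10.3 in isografts (0.63 ± 0.16, adjusted p = 0.00501), and Bnip3, named outside the selection rule because it is 1 of only 3 lower members, gave -0.47 ± 0.18 with overlapping groups (adjusted p = 0.0496).

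The genes of the apoptosome and of the proteins that leave the mitochondrion split evenly. Apaf1, the scaffold of the apoptosome, held to a narrow range in allografts, at 2.02, 1.82, 1.89, 1.97 and 2.00, against 0.791, 1.03, 1.15 and 0.896 in isografts (1.02 ± 0.36, adjusted p = 0.035). Its dimmer probeset gave 1.04 ± 0.49 and did not pass (adjusted p = 0.113). Htra2, a protease that disables caspase inhibitors, had 6.25, 5.85, 3.28, 4.31 and 3.67 in allografts, against 2.61, 2.89, 1.79 and 2.88 in isografts (0.86 ± 0.23, adjusted p = 0.00768). Lower in allografts were 2 genes whose proteins reside in healthy mitochondria. Endog, the mitochondrial endonuclease G, had 1.18, 0.709, 0.813, 0.647 and 0.960 in allografts, against 3.68, 2.34, 2.50 and 2.60 in isografts, 3.25-fold lower (-1.70 ± 0.19, adjusted p = 2.37e-06). Aifm1, the apoptosis-inducing factor, which also maintains the respiratory chain, measured 2.73, 3.40, 2.11, 2.90 and 3.54 in allografts, against 6.89, 5.07, 4.37 and 6.90 in isografts (-0.98 ± 0.18, adjusted p = 0.000415). Casp9 and Diablo did not pass (0.13 and -0.19).

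On the receptor route, 3 of 5 measured genes were higher. Casp8, the initiator caspase of the route, had 1.08, 1.24, 1.46, 1.38 and 1.33 in allografts, against 0.376, 0.357, 0.447 and 0.522 in isografts (1.62 ± 0.38, 3.07-fold, adjusted p = 0.00284). Tnfrsf1a, the main receptor of tumour necrosis factor, measured 7.60, 11.2, 8.62, 8.75 and 8.77 in allografts, against 6.61, 4.35, 4.53 and 5.35 in isografts (0.80 ± 0.16, adjusted p = 0.000648). Both genes separated the groups. Faslg, the ligand that cytotoxic lymphocytes present, was dim and overlapped, at 1.67, 1.00, 0.888, 0.942 and 1.02 in allografts, against 0.750, 0.486, 0.601 and 0.906 in isografts (0.69 ± 0.26, adjusted p = 0.0527). Its call was lost without allograft 3, isograft 11 or isograft 12 (adjusted p up to 0.163). The only heart probeset of its receptor Fas was far below the array median in every heart, but the same probeset also read only 0.0338 to 0.408 in PBMC, where the brightest Fas probeset read 1.39 to 5.04, so it says little of the level of Fas. Cflar, the natural inhibitor of caspase 8, did not pass (0.42 ± 0.24, adjusted p = 0.193).

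Casp6, an executioner caspase, had 1.79, 1.57, 1.96, 1.74 and 0.929 in allografts, against 0.901, 0.717, 0.545 and 0.170 in isografts (1.65 ± 0.41, 3.13-fold, adjusted p = 0.00422). The groups did not overlap, although the lowest allograft lay close to the highest isograft. Casp2 and Casp12 did not pass (0.28 and 0.17). Birc3, an inhibitor of apoptosis that also serves NF-kB signalling, had 3.04, 2.25, 1.60, 1.94 and 2.29 in allografts, against 1.76, 1.57, 1.35 and 1.26 in isografts, with some overlap (0.56 ± 0.19, adjusted p = 0.0279). Xiap, the direct caspase inhibitor, was below the array median in all of these hearts, at 0.423, 0.473, 0.604, 0.550 and 0.489 in allografts, against 0.163, 0.428, 0.390 and 0.374 in isografts (0.67 ± 0.29, adjusted p = 0.0883). Its call was lost without allograft 4, 5, 6 or 7 or isograft 9 (adjusted p up to 0.342), and Birc2 did not pass (0.26 ± 0.22).

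**Figure D2:**
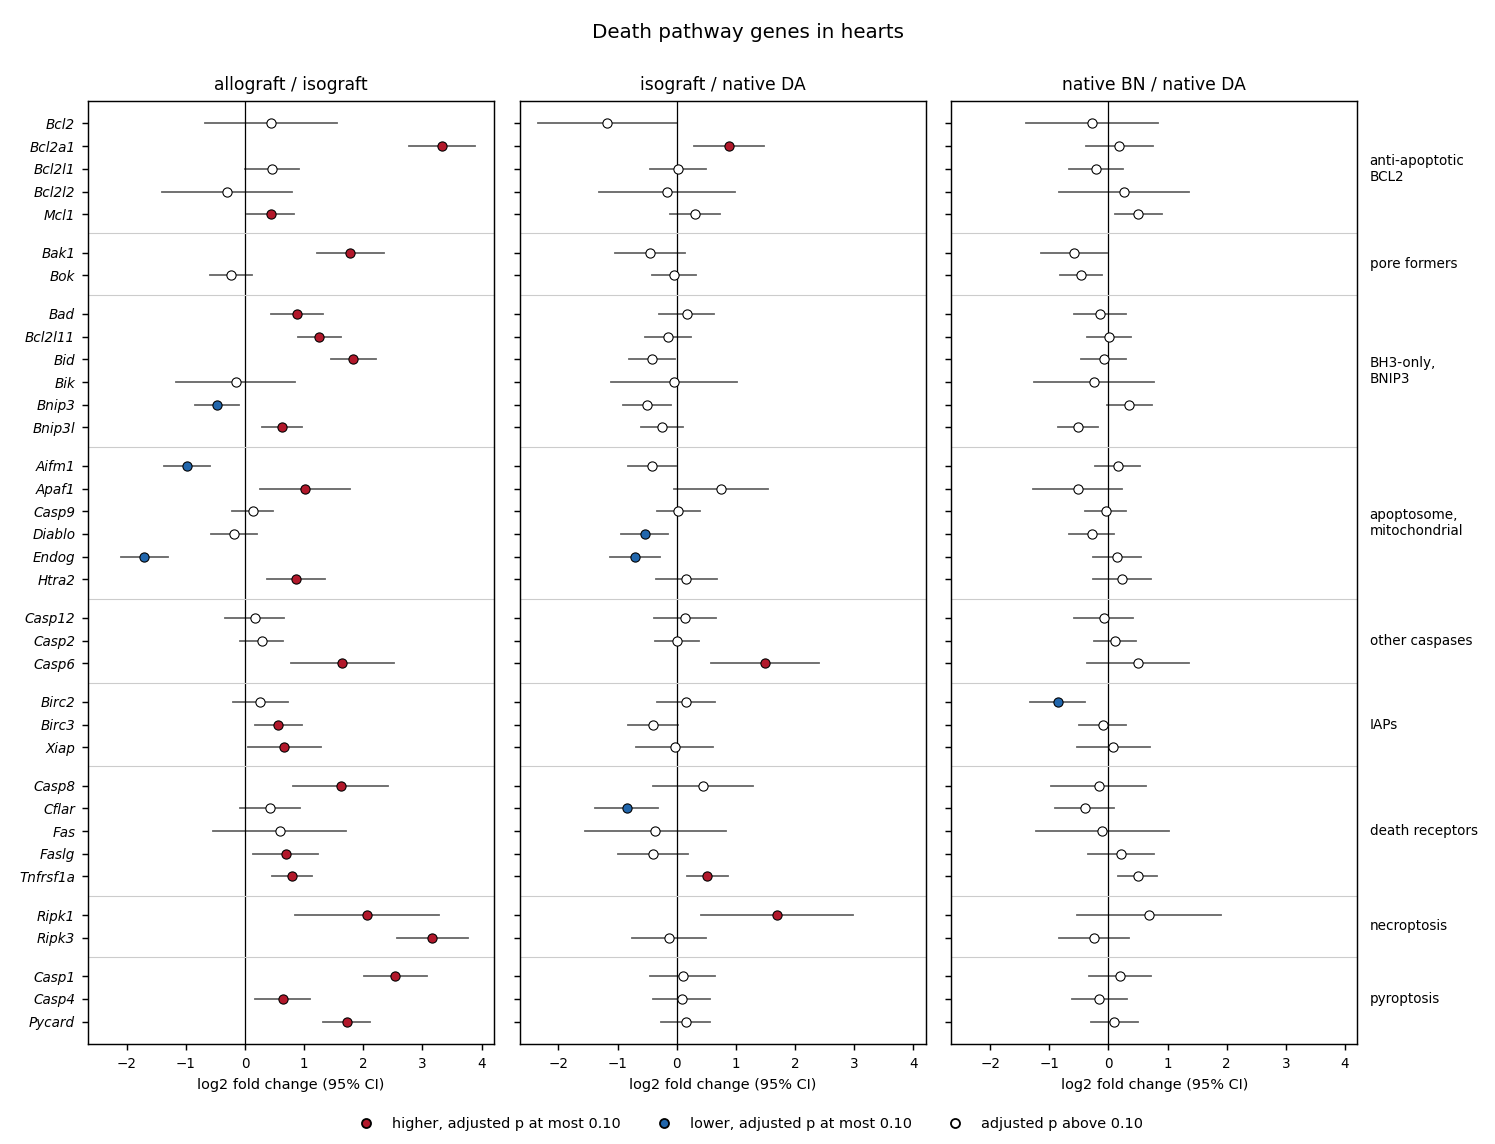
Log2 fold changes with 95% confidence intervals of 35 death pathway genes in 3 heart comparisons on a shared axis, grouped by role, with red for genes that passed as higher, blue for lower and white for not passed. In allografts over isografts 20 genes were red and 3 blue, against 4 and 3 in isografts over native DA hearts and 0 and 1 in native BN over native DA hearts.

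The cell content of the allografts moved with these genes. All 7 leukocyte markers were higher in allografts (summed signal 92.1 to 153 in allografts, 18.7 to 25.1 in isografts), as were all 10 T cell markers (21.7 to 46.8 in allografts, 5.69 to 6.60 in isografts) and all 7 monocyte and macrophage markers (232 to 388 in allografts, 50.4 to 82.3 in isografts). All 10 cardiomyocyte markers were lower, with a median log2 fold change of -2.71. The fibroblast markers had a median of -1.89, with 4 of 6 lower. NK cell markers were higher in 3 of 5 cases (3.97 to 6.66 in allografts, 1.55 to 2.91 in isografts) and all 3 neutrophil markers were higher. In whole tissue, fewer cells of a type and less RNA per cell cannot be told apart, and the part of these shifts in the members' differences was not tested.

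Other genes of the same pathways, from lists chosen by name with the same earlier results known, were also counted. Of all genes, 22.5% were higher and 23.2% lower in allografts than in isografts. All 8 cytotoxic granule genes were higher in allografts, led by the granzyme Gzmb at a geometric mean of 3.88 in allografts against 0.134 in isografts (4.86 ± 0.70, adjusted p = 3.62e-05), Gzmm (2.36 ± 0.58) and Nkg7 (2.21 ± 0.30). Of 9 inflammasome partners 5 were higher and none lower. Among them were the cytokines that caspase 1 matures, Il18 at 8.16 in allografts against 0.747 in isografts (3.45 ± 0.23, adjusted p = 1.39e-08) and Il1b at 5.94 against 0.799 (2.90 ± 0.37, adjusted p = 9.44e-06), and Ninj1, which tears the membrane at the end of lytic death (1.78 ± 0.16, adjusted p = 2.04e-07).

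Of 9 regulators of necroptosis and linear ubiquitin, 3 were higher (33.3%) and 2 lower (22.2%), where 22.5% and 23.2% of all genes were. The higher ones were upstream triggers: the endotoxin receptor Tlr4 (2.04 ± 0.31), the nucleic acid sensor Zbp1 (1.40 ± 0.28) and the adaptor Ticam1 (0.79 ± 0.24). In tumour necrosis factor signalling, 4 of 10 were higher (40%), with the second receptor Tnfrsf1b at 3.24 ± 0.49 and Tnfrsf21 at 1.64 ± 0.65. In the same list 1 was lower (10%), the adaptor Traf2 (-1.43 ± 0.39). In the p53 list 3 of 8 were lower, where 23.2% of all genes were, namely Perp (-2.61 ± 0.30), Sesn1 (-1.98 ± 0.25) and Ccng1 (-1.65 ± 0.19), and 1 higher, Cdkn1a, which is named outside the selection rule. Of 9 further BCL2 partners none was higher and 2 were lower (22.2%), close to the 23.2% of all genes. The lower ones were the mitochondrial channel Vdac1 (-1.51 ± 0.21) and the muscle co-chaperone Bag3 (-1.42 ± 0.18). In the list drawn up for the execution phase 1 of 5 passed, Cad (0.89 ± 0.23), but this symbol stands for an enzyme of pyrimidine synthesis and not for the caspase-activated DNase, so the call is not that of a death gene.

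The surgical effect, isografts over native DA hearts (n = 4 each), touched fewer members. Of the 35, 4 were higher and 3 lower, or 20%, where 14.7% of all genes passed (7.57% higher and 7.12% lower). Groups did not overlap for 1 higher and 2 lower members, beside 9.42% and 8.53% of all genes. The median log2 fold change was -0.04. Graft and native heart of one number share the recipient, and with the recipient as a replicate block 0 of 35 passed (limma; 9 had an unadjusted p under 0.05, and 193 of 10411 genes passed). Only the 2 groups in the fit, without the block, gave 2 members. Leaving out 1 heart gave 1 to 6, with 1 left without isograft 11, isograft 12 or native DA heart 13, 2 without native DA heart 9, 3 without native DA heart 11 and 4 without isograft 13.

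The higher members were the 4 genes Bcl2a1, Casp6, Ripk1 and Tnfrsf1a. Tnfrsf1a separated the groups, at 6.61, 4.35, 4.53 and 5.35 in isografts, against 3.78, 3.20, 3.72 and 3.71 in native DA hearts (0.52 ± 0.16, adjusted p = 0.065). Bcl2a1 overlapped, at 0.870, 0.930, 1.08 and 0.555 in isografts, against 0.454, 0.649, 0.334 and 0.433 in native DA hearts (0.88 ± 0.28, adjusted p = 0.0635). Casp6 had 0.901, 0.717, 0.545 and 0.170 in isografts, against 0.149, 0.195, 0.209 and 0.159 in native DA hearts (1.49 ± 0.43, adjusted p = 0.0465). All isografts but the last lay above every native DA heart. Ripk1 was dim on both sides, at 0.565, 0.713, 0.774 and 0.463 in isografts, against 0.865, 0.0831, 0.152 and 0.118 in native DA hearts, where the first heart exceeded all isografts (1.70 ± 0.61, adjusted p = 0.095). It no longer passed once 0.25 array medians were added to each signal.

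The lower members were Cflar, Diablo and Endog. Cflar had 1.60, 0.951, 1.03 and 1.20 in isografts, against 1.79, 2.29, 1.93 and 2.49 in native DA hearts, with no overlap (-0.84 ± 0.25, adjusted p = 0.0508). Endog, already described as lower in allografts, had 3.68, 2.34, 2.50 and 2.60 in isografts, against 5.22, 4.32, 3.82 and 4.51 in native DA hearts (-0.70 ± 0.20, adjusted p = 0.0444). Both comparisons share the isografts and are not independent. Diablo, which frees caspases from their inhibitors once it leaves the mitochondrion, had 5.47, 3.80, 3.54 and 4.78 in isografts, against 7.90, 6.07, 5.02 and 6.58 in native DA hearts (-0.54 ± 0.19, adjusted p = 0.0904). The pyroptosis genes Casp1, Casp4 and Pycard lay between 0.08 and 0.15 on the log2 scale, and Ripk3 at -0.13 ± 0.30.

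Macrophage and fibroblast markers moved with the surgical effect. All 7 monocyte and macrophage markers were higher (summed signal 50.4 to 82.3 in isografts, 21.9 to 30.7 in native DA hearts), 6 of 7 leukocyte markers were higher (18.7 to 25.1 in isografts, 12.02 to 13.7 in native DA hearts) and 4 of 6 fibroblast markers were higher (183 to 241 in isografts, 51.9 to 70.6 in native DA hearts). None of 10 T cell markers was higher and 1 was lower, and 3 of 5 NK cell markers were lower (1.55 to 2.91 in isografts, 3.58 to 4.60 in native DA hearts). The cardiomyocyte gene Ckm and the erythroid gene Alas2 were also lower, each alone in its list. Their part in the members' differences was not tested. Outside the member list, the fibroblast growth factor-inducible receptor Tnfrsf12a was higher (1.42 ± 0.29, adjusted p = 0.00795) and so was the adaptor Tradd (1.00 ± 0.22, adjusted p = 0.0139). Lower were Bcl2l10 (-0.80 ± 0.22), Mefv (-0.82 ± 0.23), Sesn1 (-0.77 ± 0.26) and Sharpin (-0.57 ± 0.21), and P2rx4 (0.59 ± 0.18) and Ninj1 (0.48 ± 0.17) were higher. None of the 8 cytotoxic granule genes passed in either direction (limma; 0 had an unadjusted p under 0.05).

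Strain in native hearts (BN over DA, n = 5 and 4) came with a single call among the death genes. Birc2, an inhibitor of apoptosis that also ubiquitinates Ripk1, was the only member that passed, 2.86% of 35, beside 2.71% of all genes (1.32% higher and 1.39% lower). Its signals were 0.870, 1.61, 1.08, 1.11 and 1.57 in native BN hearts, against 2.46, 1.86, 2.13 and 2.42 in native DA hearts, 1.82-fold lower and without overlap (-0.86 ± 0.22, adjusted p = 0.0621). The 9 grafts were hearts of DA donors. Birc2 read 2.09 to 4.47 in allografts, where invading host cells are BN, and 2.20 to 2.71 in isografts. The part of host cells in these readings was not tested. The call was lost with only the 2 groups in the fit (adjusted p = 0.132), as well as without native BN heart 3, 5 or 6 or native DA heart 9 or 13 (adjusted p up to 0.17), and a second member passed without native BN heart 4 or 7. Tnfrsf1a also did not overlap, at 4.12, 5.20, 5.60, 5.75 and 4.88 in native BN hearts, against 3.78, 3.20, 3.72 and 3.71 in native DA hearts, but missed the threshold (0.50 ± 0.16, adjusted p = 0.137). Groups did not overlap for 1 higher and 1 lower member, beside 2.85% and 3.74% of all genes, and 6 members had an unadjusted p under 0.05. No gene of the other pathway lists passed here. Of the cell type markers, 2 of 3 endothelial genes (Kdr and Vwf) and 1 of 7 leukocyte genes (Coro1a) were higher in native BN hearts, and their part in the Birc2 difference was not tested.

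In PBMC the strain effect of untransplanted rats (BN over DA, n = 3 each) was wider. Of 39 members 4 were higher and 3 lower, or 17.9%, where 9.87% of all genes passed (4.40% higher and 5.47% lower). This split depends on the scaling. Division by the array median sets the median of all genes at -0.11 on the log2 scale, while the deposited scaling sets it at 0.06 and quantile normalization at 0.00. With the deposited scaling 8 members were higher and 3 lower, and with quantile normalization 5 were higher and 1 lower. Bcl2, Casp12, Cflar and Tnfrsf1a passed under all 3 scalings. With only these 2 groups in the fit, and so a spread estimated from 6 arrays, Tnfrsf1a alone passed, and the other 6 members had an adjusted p of 0.112 to 0.18. Groups did not overlap for 5 members that were higher and 15 that were lower, beside 10.8% and 24.8% of all genes. Leaving out 1 animal gave 3 to 6 calls, with 3 left without untransplanted BN 1 or 3 or untransplanted DA 1 or 3.

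Tnfrsf1a showed the clearest separation, with 19.4, 19.0 and 18.2 in untransplanted BN rats, against 11.9, 9.21 and 7.89 in untransplanted DA rats (0.98 ± 0.26, 1.98-fold, adjusted p = 0.0314). Casp12, a rodent caspase of the inflammatory family, had 1.47, 0.934 and 1.04 in BN rats, against 0.489, 0.725 and 0.703 in DA rats (0.84 ± 0.19, adjusted p = 0.0112). Bcl2l2, or Bcl-w, a guard of the BCL2 family, had 1.58, 1.23 and 1.32 in BN rats, against 0.866, 0.821 and 0.608 in DA rats (0.86 ± 0.25, adjusted p = 0.0495). None of these 3 genes overlapped between the strains. Bcl2l2 was read by 2 probesets in PBMC, and its call in untransplanted rats was lost with the median over them. Cflar had 3.02, 2.67 and 2.45 in BN rats, against 2.07, 1.80 and 1.98 in DA rats (0.47 ± 0.15, adjusted p = 0.0736). Its second probeset gave -0.03 ± 0.17. Single animals carried several of these calls: Tnfrsf1a was lost without untransplanted DA 3 (adjusted p = 0.12), Bcl2l2 without untransplanted BN 1 or 3 or untransplanted DA 3 (adjusted p up to 0.182), and Cflar without any animal but untransplanted BN 3 (adjusted p up to 0.264).

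Lower in BN rats was Bcl2, the founding guard of the family and a survival factor of resting lymphocytes, at 1.33, 1.30 and 0.788 in BN rats, against 4.22, 3.02 and 1.73 in DA rats (-1.34 ± 0.34, 2.53-fold, adjusted p = 0.0259). Its call was lost without untransplanted BN 3 or untransplanted DA 1 (adjusted p up to 0.135). Bnip3 had 1.70, 1.68 and 1.82 in BN rats, against 3.11, 2.46 and 2.39 in DA rats (-0.61 ± 0.18, adjusted p = 0.0604), and needed each of the BN rats and untransplanted DA 1 for its call (adjusted p up to 0.221). Pycard had 57.9, 64.3 and 55.7 in BN rats, against 93.8, 79.6 and 83.8 in DA rats (-0.53 ± 0.17, adjusted p = 0.0829), and lost its call whichever of the 6 animals was left out. Ripk3 did not overlap either, at 8.98, 9.41 and 9.13 in BN rats, against 13.5, 13.0 and 12.4 in DA rats, but did not pass (-0.50 ± 0.23, adjusted p = 0.252).

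**Figure D3:**
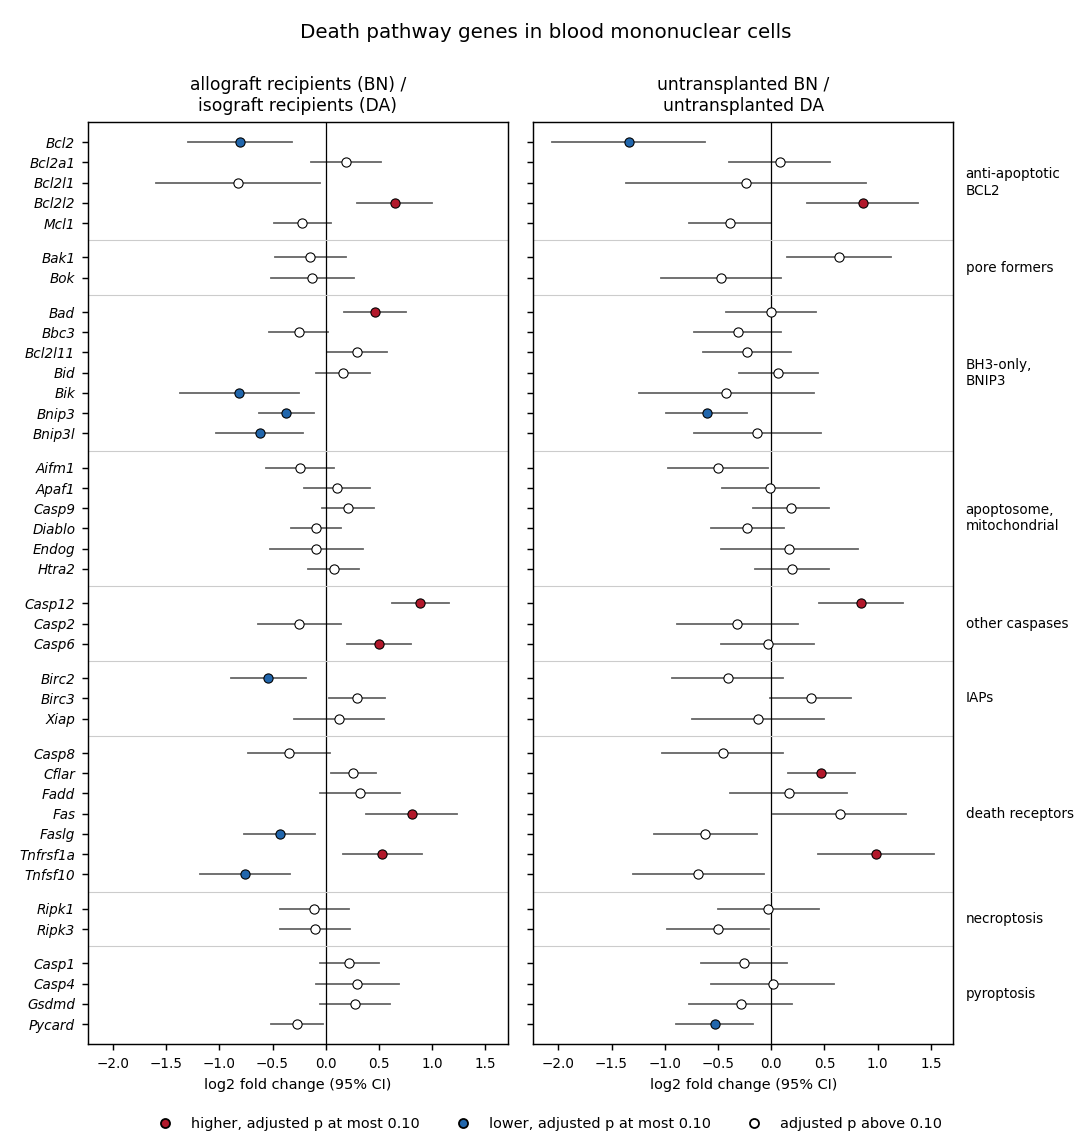
Log2 fold changes with 95% confidence intervals of 39 death pathway genes in PBMC on a shared axis, for recipients (allograft BN over isograft DA) and untransplanted rats (BN over DA), with colours for the adjusted p as in the legend. In recipients 6 genes passed as higher and 7 as lower, in untransplanted rats 4 and 3, and Casp12, Tnfrsf1a, Bcl2l2, Bcl2 and Bnip3 passed in both.

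The strain plus rejection effect in recipients (BN with allografts over DA with isografts, n = 5 and 9) passed in 13 of 39 members, 6 higher and 7 lower. These are 33.3%, beside 22.9% of all genes (7.72% higher and 15.2% lower). Scaling again moved the split, the median of all genes being -0.06 with the array median, 0.07 with the deposited scaling and 0.01 with quantile normalization. The deposited scaling gave 15 higher and 5 lower, and quantile normalization 18 higher and 5 lower. Of the 13, 10 passed in all 3 scalings, the exceptions being Bnip3l, Bnip3 and Faslg. With only the 2 groups in the fit Bik, Bnip3 and Faslg did not pass (adjusted p of 0.101 to 0.106). Groups did not overlap for 2 higher members and 0 lower ones, beside 3.04% and 4.04% of all genes. Between 9 (without allograft recipient 4) and 15 members (without isograft recipient 11) passed when 1 animal was left out.

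Casp12 separated the groups in recipients as well, at 2.73, 2.68, 2.42, 2.22 and 2.54 in allograft recipients, against 1.10 to 1.63 with a median of 1.38 in isograft recipients (0.89 ± 0.13, 1.85-fold, adjusted p = 0.000108). Its promoter window, shown above, held 2 different motifs, and a link between them and these levels was not tested. Fas, the receptor of Fas ligand, was the other gene without overlap, at 5.04, 4.60, 3.91, 3.53 and 3.45 in allograft recipients, against 1.39 to 3.37 with a median of 2.26 in isograft recipients (0.81 ± 0.20, adjusted p = 0.0121). Neither of its 2 dimmer probesets passed (0.56 ± 0.57 and 0.37 ± 0.20). Tnfrsf1a had 23.9, 20.9, 24.2, 15.7 and 16.4 in allograft recipients, against 8.95 to 19.1 with a median of 13.7 in isograft recipients (0.53 ± 0.18, adjusted p = 0.0556). That call was lost without allograft recipient 3, 4 or 5 (adjusted p up to 0.146).

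Casp6 had 5.53, 5.33, 5.84, 4.03 and 3.79 in allograft recipients, against 2.72 to 4.56 with a median of 3.20 in isograft recipients (0.50 ± 0.14, adjusted p = 0.0245). Bcl2l2 had 1.54, 1.03, 1.43, 0.955 and 1.17 in allograft recipients, against 0.517 to 1.09 with a median of 0.815 in isograft recipients (0.65 ± 0.17, adjusted p = 0.0155). Bad had 5.25, 4.76, 5.01, 4.34 and 4.68 in allograft recipients, against 2.59 to 5.11 with a median of 3.44 in isograft recipients (0.46 ± 0.14, adjusted p = 0.0327). In each of these 3 genes the ranges overlapped by 1 to several animals.

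On the lower side, Bcl2 stood at 0.725, 0.454, 0.609, 0.599 and 0.469 in allograft recipients, against 0.629 to 1.38 with a median of 0.910 in isograft recipients (-0.80 ± 0.23, adjusted p = 0.0278). Tnfsf10, the death ligand TRAIL, had 2.26, 1.78, 1.54, 1.57 and 1.15 in allograft recipients, against 1.63 to 3.95 with a median of 2.99 in isograft recipients (-0.76 ± 0.20, adjusted p = 0.0164). Faslg had 3.96, 3.15, 3.52, 2.62 and 2.20 in allograft recipients, against 3.42 to 5.25 with a median of 3.81 in isograft recipients (-0.43 ± 0.16, adjusted p = 0.0777). The receptor Fas and 2 death ligands, its own included, thus lay on opposite sides of zero. Faslg lost its call in 7 of 14 fits that left out 1 animal (adjusted p up to 0.246), namely without allograft recipient 4, 6 or 7 or isograft recipient 14, 16, 17 or 21.

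Birc2 had 8.13, 5.52, 5.05, 5.70 and 5.13 in allograft recipients, against 6.40 to 12.7 with a median of 8.03 in isograft recipients (-0.54 ± 0.17, adjusted p = 0.0404). All but allograft recipient 3 lay below every isograft recipient, and the call was lost without allograft recipient 5 or 7 (adjusted p up to 0.109). Bnip3 had 2.08, 1.70, 1.90, 1.68 and 1.35 in allograft recipients, against 1.73 to 2.60 with a median of 2.27 in isograft recipients (-0.37 ± 0.12, adjusted p = 0.0579). It lost its call without allograft recipient 4, 6 or 7 (adjusted p up to 0.192). Bik, a BH3-only protein, was dim, at 0.611, 0.144, 0.305, 0.373 and 0.363 in allograft recipients, against 0.376 to 1.03 with a median of 0.596 in isograft recipients (-0.81 ± 0.27, adjusted p = 0.052), and its call needed allograft recipients 4 and 5 (adjusted p up to 0.167). Cflar was read in opposite directions by its probesets, 0.26 ± 0.10 for the brighter (adjusted p = 0.103) and -0.40 ± 0.11 for the dimmer (adjusted p = 0.0251).

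**Figure D4:**
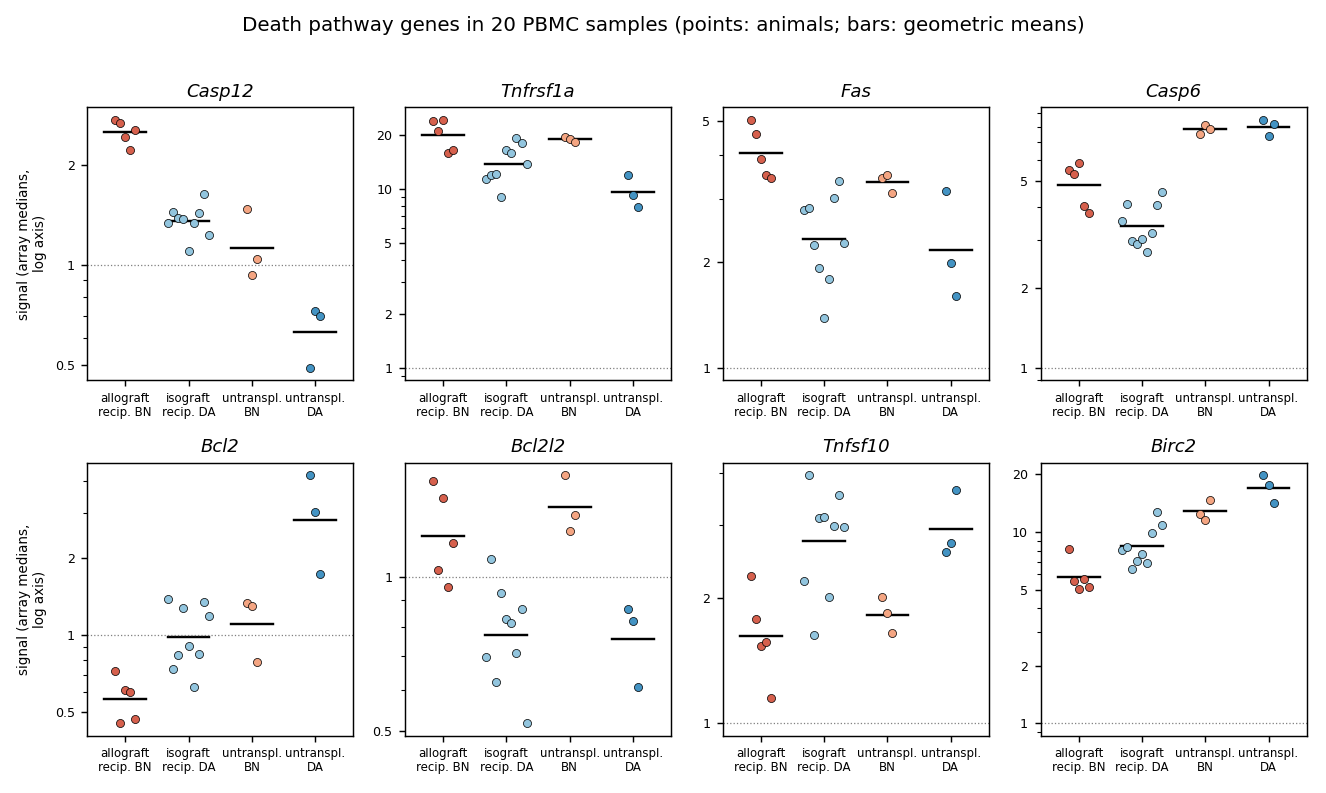
Signal of 8 death pathway genes in PBMC of 20 rats, in array medians on a log axis, with points for animals, bars for geometric means and a dotted line at the array median. Casp12 and Fas of the 5 allograft recipients lay above those of all 9 isograft recipients. The untransplanted rats are a separate batch and are to be read against each other only.

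Red cell and lymphocyte markers moved with the recipients' comparison. Of 11 T cell markers 10 were lower (summed signal 220 to 381 in allograft recipients, 359 to 601 in isograft recipients), 7 of 10 monocyte markers were higher and 1 lower (256 to 397 in allograft recipients, 203 to 334 in isograft recipients), and 4 of 5 erythroid markers were lower (146 to 219 in allograft recipients, 209 to 460 in isograft recipients). All 3 platelet markers were lower and 3 of 4 B cell markers higher, while of 5 NK cell markers 2 were lower and 1 higher (41.0 to 71.3 in allograft recipients, 57.6 to 80.9 in isograft recipients). Of 4 neutrophil markers 2 were higher and 1 lower (52.5 to 205 in allograft recipients, 9.95 to 66.8 in isograft recipients). In untransplanted rats 7 of 11 T cell markers were lower (494 to 547 in BN rats, 885 to 932 in DA rats) and 6 of 10 monocyte markers higher (286 to 355 in BN rats, 241 to 369 in DA rats). Of 5 NK cell markers 3 were lower and 1 higher in BN rats (55.4 to 66.8 in BN rats, 107 to 113 in DA rats), and 2 of 3 platelet markers were lower. Their part in the members' differences was not tested.

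Bnip3l, the receptor that clears mitochondria from maturing red cells, had 49.0, 42.6, 49.8, 38.4 and 35.0 in allograft recipients, against 42.5 to 97.6 with a median of 77.5 in isograft recipients (-0.62 ± 0.19, adjusted p = 0.0419). Its second probeset gave -0.48 ± 0.15 (adjusted p = 0.0455). The call was lost without allograft recipient 6 or 7 (adjusted p up to 0.122). Bnip3l was set beside the haem synthesis gene Alas2, an erythroid marker singled out after the values were seen, which was at 10.5, 28.2, 40.2, 16.9 and 15.1 in allograft recipients, against 26.4 to 117 with a median of 79.2 in isograft recipients. Isograft recipient 18 was the highest of its group in both genes. Among allograft recipients the order was not shared, since allograft recipient 3 had the lowest Alas2 (10.5) and a Bnip3l of 49.0, close to the group's highest of 49.8. Bcl2l1, the guard Bcl-xL, had 3.20, 3.20, 6.83, 2.88 and 2.96 in allograft recipients, against 2.78 to 13.9 with a median of 6.01 in isograft recipients. Bcl2l1 itself did not pass (-0.82 ± 0.37, adjusted p = 0.16). The Alas2 values of the isograft recipients left a gap between 40.1 and 79.2, so no correlation is given, and the part of red cells in these values was not tested.

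**Figure D5:**
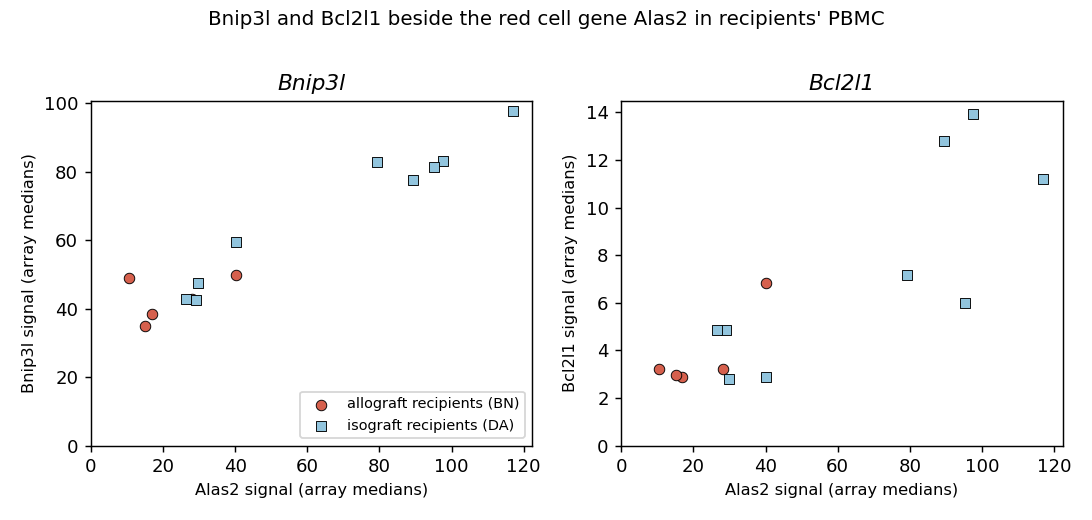
Signal of Bnip3l and Bcl2l1 against that of the erythroid marker Alas2 in PBMC of 5 allograft recipients (circles) and 9 isograft recipients (squares), in array medians on linear axes. Isograft recipient 18 had the highest Alas2 (117) and Bnip3l (97.6), while allograft recipient 3 had the lowest Alas2 (10.5) with a Bnip3l of 49.0.

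Both blood comparisons were then set side by side. In all, 5 members passed in both, Bcl2, Bcl2l2, Bnip3, Casp12 and Tnfrsf1a, each in the same direction, and they make up 71.4% of the 7 that passed in untransplanted rats and 38.5% of the 13 that passed in recipients. Log2 fold changes were 0.89 in recipients and 0.84 in untransplanted rats for Casp12, 0.65 and 0.86 for Bcl2l2, 0.53 and 0.98 for Tnfrsf1a, -0.80 and -1.34 for Bcl2, and -0.37 and -0.61 for Bnip3. The difference between the effects was tested for every member, and 0 of 39 passed (limma; 3 had an unadjusted p under 0.05, and 0.309% of all genes passed). Those 3 were Bak1 (-0.78 ± 0.28, adjusted p = 0.424), Casp6 (0.53 ± 0.25) and Bcl2l11 (0.52 ± 0.24). Of the 8 members that passed in recipients alone, Fas gave 0.64 ± 0.30 in untransplanted rats and Tnfsf10 -0.69 ± 0.29, close to their recipients' values, while Casp6 gave -0.03 ± 0.21.

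Other lists in blood were led by the inflammasome cytokine Il18, at a geometric mean of 8.11 in allograft recipients against 2.00 in isograft recipients (2.02 ± 0.17, adjusted p = 3.52e-07) and at 6.37 in untransplanted BN rats against 2.30 in untransplanted DA rats (1.47 ± 0.25, adjusted p = 0.00158). Mefv, the sensor pyrin, was likewise higher in both (0.47 ± 0.12 in recipients, 0.94 ± 0.18 in untransplanted rats). Zbp1 was lower in both (-0.91 ± 0.16 and -1.34 ± 0.23), as was Bag3 (-0.92 ± 0.12 and -0.72 ± 0.17), whereas Tlr4 (0.65 ± 0.19 and 0.86 ± 0.27) and the ligand Tnfsf12 (0.72 ± 0.18 and 0.91 ± 0.26) were higher. Cytotoxic granule genes were lower in 7 of 10 cases in untransplanted BN rats, where 5.47% of all genes were. Gzma was at 9.55 in BN rats against 41.0 in DA rats (-2.10 ± 0.30, adjusted p = 0.000291), Gzmb at -1.74 ± 0.27 and Gzmm at -1.05 ± 0.30. In recipients only 1 of 10 passed, Prf1 (-0.47 ± 0.16), where 22.9% of all genes did. The difference between the effects, recipients minus untransplanted rats, passed for none of the 10 (limma; 5 had an unadjusted p under 0.05). It was above 0 for all 10, with a median of 0.73, where the median of all genes was 0.01. These genes were read on the same animals, so their shared sign is not 10 separate results. The part of cell content in it was not tested.

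Passing in recipients alone were lower values of the stress sensor Sesn1 (-1.10 ± 0.18), Lta (-0.82 ± 0.19), Tnfrsf12a (-0.78 ± 0.17), Rbck1 (-0.69 ± 0.22), Parp1 (-0.46 ± 0.17), the channel Panx1 (-0.45 ± 0.12), Map3k7 (-0.39 ± 0.11), Tmbim6 (-0.37 ± 0.13) and Pgam5 (-0.33 ± 0.13), and higher values of Vdac1 (0.61 ± 0.12), the cytokine Tnf itself (0.46 ± 0.16) and Pidd1 (0.35 ± 0.14). Cad, the pyrimidine synthesis gene, was lower too (-0.56 ± 0.15). For none of these did the difference between the effects pass. Tnfrsf21 passed in untransplanted rats (0.66 ± 0.19). The interleukin 1 receptor Il1r1 was higher in recipients (1.86 in allograft recipients against 1.21 in isograft recipients) and lower in untransplanted rats (0.385 in BN rats against 0.899 in DA rats), and it was the only gene on these lists whose effects differed by the test (1.84 ± 0.35, adjusted p = 0.0406). That call was lost without untransplanted BN 3 (adjusted p = 0.143) and with the median over the gene's probesets (adjusted p = 0.923). In recipients the call of Il1r1 was lost without allograft recipient 5 and with the median over its probesets (adjusted p up to 0.161).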

How the data were processed

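Heart RNA was hybridised to Affymetrix RAE230A arrays and PBMC RNA to RAE230 2.0 arrays, 1 array for each animal and tissue. The deposited intensity values are MAS5 signals per probeset, which the authors scaled to a common trimmed mean, measured here as 99.4 to 99.8. Signals below the array median are noisy in this method, and precision is set by how many arrays there are. Each signal was divided by its array's median over non-control probesets (57 control probesets were left out of each array type) and log2 transformed, so fold changes are relative to the median probeset. Group means were fitted with limma 3.58.1 in R 4.3.3, with all arrays of a tissue sharing 1 estimate of the spread. P-values were adjusted over 15866 heart or 31042 PBMC probesets, at a false discovery rate of 10%. The script was tested on simulated data.

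Each gene is read by its brightest own probeset. Probeset annotation named 1 gene for 12783 heart and 20826 PBMC probesets, several for 312 and 436, and none for 2771 and 9780. Up to 4 members per role with the largest passing change, and up to 3 genes per other list, are given with values. Panx1, Map3k7, Pgam5 and Tnf in recipients' PBMC are named outside this rule, as are some members that did not pass. The members and lists were chosen with earlier results of these data known. Grafts and native hearts of one number come from the same recipient, though their deviations correlated at only -0.045 to 0.118. Alternatives were the scaling, an added 0.25 array medians, a filter on dim probesets, the median over probesets, 2-group fits, stricter thresholds, a replicate block and leaving out each array. Recipients are separate animals.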

Additional observations from a re-analysis of the deposited data

Results flagged for a closer look

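For the members named with values, the highest or lowest sample was compared with the others of its group. This was done for 130 pairs of gene and group, with 4 to 9 samples a group. In 12 pairs the sample lay beyond Dixon's limit, where chance gives about 1 pair in 20 for independent pairs. The pairs share arrays and are not independent, so their number cannot be set against chance. In isografts, Bak1 was 0.952 array medians in isograft 12 (0.631 to 0.673 in the others), Casp4 was 1.07 in isograft 13 (1.52 to 1.54) and Xiap was 0.163 in isograft 9 (0.374 to 0.428). Isograft 11 was lowest for Bnip3l, at 7.92 (10.3 to 10.6), and highest for Mcl1, at 6.65 (4.77 to 4.90). In allografts, Bcl2a1 was 4.47 in allograft 5 (8.48 to 10.5) and Faslg was 1.67 in allograft 3 (0.888 to 1.02). In native hearts, Bcl2l11 was 1.62 in native BN heart 7 (2.31 to 2.43), Pycard was 1.81 in native DA heart 9 (1.55 to 1.57) and Tnfrsf1a was 3.20 in native DA heart 11 (3.71 to 3.78). In PBMC, allograft recipient 3 was highest for Birc2, at 8.13 (5.05 to 5.70), and for Pycard, at 56.9 (42.2 to 45.1). This check used signals divided by the array median and was not repeated under another scaling. The deposited median of allograft recipient 3 was 27.4, the lowest of its group (31.5 to 36.8 in the others). That of isograft 11 was 47.0, the highest of its group (38.8 to 45.9 in the others). The part of the scaling in these flags was not tested.

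The strain plus rejection effect of Il1r1 in PBMC exceeded its strain effect by 1.84 on the log2 scale, by a test of the difference itself (limma, adjusted p = 0.0406). The call was lost without untransplanted BN 3 (adjusted p = 0.143) and with the median over the gene's probesets (adjusted p = 0.923).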

How the results depend on the processing

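The rejection effect passed in 23 of 35 members, in 20 to 23 when 1 heart was left out and in 10 with a fold of at least 3 and the signal criterion added. The surgical effect passed in 7 members, against 2 with only its groups in the fit, 2 at an adjusted p of at most 0.05, 0 with the fold and signal criterion (11 at an unadjusted p under 0.05) and 1 to 6 when 1 heart was left out. With the recipient as a replicate block it passed in 0 of 35 (9 at an unadjusted p under 0.05). Under a random recipient block, with a consensus correlation of 0.0575, the counts of the rejection effect (23) and the heart strain effect (1) did not change. The heart strain effect of 1 member became 3 with the deposited scaling, with 0.25 added or with only bright probesets, 2 with the median over probesets, and 0 with only its groups in the fit, at an adjusted p of at most 0.05 or with the fold and signal criterion (6 at an unadjusted p under 0.05). It ranged over 0 to 2 when 1 heart was left out. The PBMC strain effect of 7 members became 11 with the deposited scaling, 1 with only its groups in the fit, 4 at an adjusted p of at most 0.05, 0 with the fold and signal criterion (14 at an unadjusted p under 0.05) and 3 to 6 when 1 animal was left out. Untransplanted BN and DA rats share only a number, with deviations correlated at 0.00304 to 0.0365, and the fit with that number as a replicate block gave 0 of 39 (10 at an unadjusted p under 0.05) and 0 of 14217 genes. The PBMC strain plus rejection effect of 13 members became 20 with the deposited scaling, 23 with quantile normalization, 0 with the fold and signal criterion (18 at an unadjusted p under 0.05) and 9 to 15 when 1 animal was left out. The difference of the PBMC effects passed in 0 members under every setting run (1 to 6 at an unadjusted p under 0.05). Il1r1 turned direction in the PBMC strain effect, at 0.30 with the median over its probesets (adjusted p = 0.738), where its brightest probeset gave -1.22. The causes of these shifts were not tested. Signals far below the array median, such as that of Fas in every heart, and 3 arrays a group in untransplanted rats limit what these comparisons can resolve.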

Other observations

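The probeset that Bax shares with LOC681314 behaved differently in blood and in hearts. It was higher in allografts than in isografts, but in PBMC it stood at 9.11, 9.47, 9.46, 8.68 and 8.42 array medians in allograft recipients, against 5.68 to 12.6 with a median of 8.75 in isograft recipients, and did not pass (0.08 ± 0.16, adjusted p = 0.818). In untransplanted rats it measured 15.9, 14.1 and 14.3 in BN rats, against 19.2, 17.4 and 19.0 in DA rats, which did not pass either (-0.33 ± 0.24, adjusted p = 0.518). The dimmer Bok probeset, which was higher in allografts than in isografts, was lower in isografts than in native DA hearts, at 1.65, 1.22, 1.03 and 0.922 in isografts, against 2.31, 1.74, 1.79 and 1.71 in native DA hearts (-0.67 ± 0.21, adjusted p = 0.0557). Both comparisons share the isografts.

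Gsdmd, the gasdermin that caspase 1 cleaves to open the membrane in pyroptosis, was analysed in PBMC only. It had 4.12, 3.90, 2.81, 3.99 and 3.74 in allograft recipients, against 2.03 to 4.07 with a median of 2.91 in isograft recipients (0.27 ± 0.16, adjusted p = 0.287). Neither necroptosis kinase passed in either blood comparison, and Ripk1 gave -0.11 ± 0.15 in recipients and -0.03 ± 0.23 in untransplanted rats.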
